A study of Mus musculus with 28 samples.

Results

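The Slc22 genes code for a family of organic ion transporters, membrane proteins that carry organic anions, organic cations, carnitine and urate across the plasma membrane. The 9 genes described here are Slc22a2, Slc22a4, Slc22a5, Slc22a6, Slc22a7, Slc22a8, Slc22a12, Slc22a28 and Slc22a30. With earlier results of these data known, they were chosen by name from the 25 Slc22 genes looked up among the 54446 genes listed in each library. They were followed in polyA RNA sequencing libraries from the liver and the kidney of male C57BL/6 mice (C57BL6J in the methods) aged 8 weeks. The mice were gavaged for 7 days with nicotinamide mononucleotide (NMN), a precursor of NAD+, or with water as the control. Once-daily gavage gave 1340 mg/kg/d of NMN, and each organ of that schedule had 4 NMN-treated and 4 control libraries. Twice-daily gavage gave 2680 mg/kg/d, with 3 NMN-treated and 3 control libraries per organ. The 2 schedules were separate sets of mice with their own controls, so schedule and set of libraries cannot be told apart. Control mice were gavaged with water on the same schedule, so handling was shared by both groups. Counted reads ran from 12688324 to 16455228 in the once-daily livers, from 17573184 to 20635269 in the twice-daily livers and from 13174264 to 15696435 in the once-daily kidneys. In the twice-daily kidneys they ran from 16358886 to 18983689 with water and from 22922994 to 33872983 with NMN, so depth and treatment did not overlap there. They did not overlap in the once-daily kidneys either, where the NMN libraries ended at 14006288 and the control libraries began at 15354270. Levels are read counts relative to the TMM-scaled size of the library, as CPM, scaled within each organ and schedule. Levels of different genes were compared as CPM per kilobase of exon, and the share of Slc22a28 in its sum with Slc22a30 is given both in plain CPM and per kilobase.

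In the proximal tubule of the kidney, the uptake transporters of this family take drugs, toxins and metabolites from the blood into the cell, and other transporters pass them into the urine. Slc22a6 (OAT1) and Slc22a8 (OAT3) take up organic anions at the blood side of the cell in exchange for dicarboxylates, Slc22a2 (OCT2) takes up organic cations there, and Slc22a12 (URAT1) exchanges urate at the urine side. In the liver, Slc22a7 (OAT2) takes up organic anions from the blood, while Slc22a5 (OCTN2) brings carnitine into many cell types for the transport of fatty acids into mitochondria. Slc22a28 and Slc22a30 belong to a group of rodent organic anion transporter genes that lie close to each other and resemble each other strongly.

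The likeness of Slc22a28 to its relatives bears on how its reads could be counted, so the first 90 coding bases of 6 genes of this group are shown. They were read from the GENCODE M21 transcripts, and capitals mark bases that differ from Slc22a28.
Slc22a28: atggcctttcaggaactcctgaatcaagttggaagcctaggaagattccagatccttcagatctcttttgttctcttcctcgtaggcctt
Slc22a30: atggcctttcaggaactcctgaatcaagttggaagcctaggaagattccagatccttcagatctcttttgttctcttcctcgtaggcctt
Slc22a29: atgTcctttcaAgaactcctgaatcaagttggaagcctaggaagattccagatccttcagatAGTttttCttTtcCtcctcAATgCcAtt
Slc22a27: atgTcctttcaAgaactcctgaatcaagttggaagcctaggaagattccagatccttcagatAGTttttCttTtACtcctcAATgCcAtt
Slc22a26: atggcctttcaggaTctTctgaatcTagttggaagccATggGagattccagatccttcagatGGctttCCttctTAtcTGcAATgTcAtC
Slc22a19: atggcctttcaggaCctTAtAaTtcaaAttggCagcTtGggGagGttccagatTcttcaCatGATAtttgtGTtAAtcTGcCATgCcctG
Over this stretch Slc22a30 had 0 differing bases, Slc22a29 had 13, Slc22a27 had 14, Slc22a26 had 20 and Slc22a19 had 28. Over the whole coding part, Slc22a28 and Slc22a30 were identical at 1636 of 1656 aligned bases (98.8%). Slc22a28 was 92.1% identical to Slc22a29, 91.5% to Slc22a27, 76.1% to Slc22a19 and 74.2% to Slc22a26, against 52.2% to 56.4% to the other 7 transporters followed here. Of all 50-base stretches of the Slc22a28 transcript, 53.9% also occurred in transcripts of other genes, mainly Slc22a30, Slc22a27 and Slc22a29, and at 100 bases the share was 37%. For Slc22a30 the shares were 34.3% at 50 bases and 21.1% at 100 bases. Reads that fall wholly in such a stretch map to more than 1 place and are not counted by HTSeq, so Slc22a28 and Slc22a30 are measured on their remaining sequence, and their single values are uncertain to that extent. Levels per kilobase divide by the full exon length, shared stretches included. These stretches take more of Slc22a28, so they lower its level per kilobase more than that of Slc22a30, by an amount not measured. Slc22a5 shared 26.3% of its 50-base stretches, mainly with Slc22a21, and Slc22a12 shared 27.4% with Nrxn2, which overlaps it on the other strand. Without strand, reads lying wholly in exons of both genes are ambiguous and counted for neither. The other 5 transporters shared from 0% to 4.44%.

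The promoters of the near-identical pair were also alike, and they are shown because both genes had lower means with NMN in all 4 comparisons below. Each holds 250 bases before and 50 bases after the start of the gene as listed by RefSeq for GRCm38.p6, on the minus strand. Capitals mark the 12 bases in each that had no identical partner in the alignment. The Slc22a28 promoter lies at chr19:8131933-8132232 and the Slc22a30 promoter at chr19:8405056-8405355.
Slc22a28 promoter: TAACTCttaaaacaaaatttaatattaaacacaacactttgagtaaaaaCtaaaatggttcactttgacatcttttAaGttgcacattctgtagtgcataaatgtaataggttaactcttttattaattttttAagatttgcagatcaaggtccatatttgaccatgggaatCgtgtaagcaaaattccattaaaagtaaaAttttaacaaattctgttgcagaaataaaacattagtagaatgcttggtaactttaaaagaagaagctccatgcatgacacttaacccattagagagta
Slc22a30 promoter: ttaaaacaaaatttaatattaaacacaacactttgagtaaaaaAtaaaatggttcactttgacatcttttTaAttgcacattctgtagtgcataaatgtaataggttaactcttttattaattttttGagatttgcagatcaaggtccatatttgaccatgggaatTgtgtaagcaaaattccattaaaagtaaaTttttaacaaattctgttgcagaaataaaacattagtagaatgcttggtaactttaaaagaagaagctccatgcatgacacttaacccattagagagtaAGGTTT
They were identical at 288 of 306 aligned columns (94.1%), whereas the promoters of Slc22a28 and Slc22a29 were 68% identical and those of Slc22a28 and Slc22a26 50%. The letters GTTAAT, a half-site of the liver and kidney factor HNF1, were searched on both strands. Among the 8 of the 9 transporters with a promoter entry (there was none for Slc22a7), only Slc22a6 and Slc22a8 held them, against 7.2% of all 27025 promoters of this length. These 2 promoters belong to the anion uptake transporters that were read almost exclusively in the kidney. Slc22a2 and Slc22a12, also read almost only there, did not hold the letters, whereas Slc22a29 of the similar group did. In all, 3 of the 22 Slc22 genes with a promoter entry held them. In the 2 promoters below the half-site is in capitals.
Slc22a6 promoter: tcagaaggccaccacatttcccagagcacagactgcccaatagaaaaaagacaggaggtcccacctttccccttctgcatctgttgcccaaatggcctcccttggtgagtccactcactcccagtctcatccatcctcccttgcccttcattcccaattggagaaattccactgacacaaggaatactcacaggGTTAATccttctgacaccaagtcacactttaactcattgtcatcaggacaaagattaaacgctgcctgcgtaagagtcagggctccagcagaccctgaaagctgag
Slc22a8 promoter: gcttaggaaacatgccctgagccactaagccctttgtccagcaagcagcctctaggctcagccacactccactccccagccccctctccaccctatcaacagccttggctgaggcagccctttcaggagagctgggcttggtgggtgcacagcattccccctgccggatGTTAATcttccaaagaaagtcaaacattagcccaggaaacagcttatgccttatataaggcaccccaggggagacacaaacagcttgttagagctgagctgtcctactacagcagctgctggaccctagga
They lie on the plus strand at chr19:8617746-8618045 and chr19:8592932-8593231. The letters AGGTCA, a half-site of nuclear receptors, occurred on neither strand in the 8 promoters, against 16% of all promoters.

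In control mice the 9 transporters fell into 3 sets by organ. Slc22a2, Slc22a6, Slc22a8 and Slc22a12 were at high levels in the kidney and near 0 in the liver. Slc22a4, Slc22a5 and Slc22a28 were in both organs and higher in the kidney. Slc22a7 and Slc22a30 were in both organs at levels of the same order. The organs were compared in edgeR over the control libraries of 1 schedule at a time, without a block, and the labels do not say whether same-numbered liver and kidney libraries came from the same mouse. Of all genes tested, 66.9% differed between the organs in once-daily controls and 70.5% in twice-daily controls at an adjusted p under 0.05, and 8 of the 9 transporters did in each, so a difference between the organs is common to most genes. These fits scaled both organs together, with mean TMM factors of 0.72 for liver and 1.39 for kidney in once-daily and 0.725 and 1.38 in twice-daily controls. Without TMM, an alternative added after the data were seen, the median log2 difference of all genes, liver minus kidney, moved from -0.10 to -1.05 in once-daily and from -0.17 to -1.10 in twice-daily controls. The share of calls that were higher in the liver moved with it, from 46.1% to 14.2% and from 44% to 15.1%.

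Per kilobase, Slc22a12 ranked first in once-daily control kidneys at 547 ± 104 CPM per kb (SD, n = 4), followed by Slc22a6 at 284 ± 45.5. Slc22a8 at 146 ± 4.42 and Slc22a2 at 134 ± 17.2 came next, and the ranges of these neighbours overlapped. Slc22a7 at 91.4 ± 32.5, Slc22a5 at 90.4 ± 11.6 and Slc22a28 at 76.5 ± 10.2 overlapped one another. Below them stood Slc22a30 at 51.2 ± 6.49, apart from Slc22a28 but overlapping the wide range of Slc22a7, and Slc22a4 at 17.9 ± 1.58, apart from all the others. In twice-daily control kidneys Slc22a6 (281 ± 20.4 CPM per kb, SD, n = 3) and Slc22a12 (277 ± 29.6) overlapped at the top. Slc22a8 (156 ± 14.2) and Slc22a2 (134 ± 12.0) overlapped below them. The lower levels were 49.2 ± 9.59 for Slc22a5, 40.6 ± 4.72 for Slc22a30, 40.5 ± 1.22 for Slc22a28, 36.5 ± 2.66 for Slc22a7 and 18.9 ± 3.34 for Slc22a4. Slc22a12, Slc22a5, Slc22a7 and Slc22a28 thus stood lower in the twice-daily than in the once-daily control kidneys, with no overlap of the libraries, while Slc22a2, Slc22a6, Slc22a8, Slc22a4 and Slc22a30 overlapped. This contrast between schedules was not tested, since every library of a schedule belongs to one set. The share of all genes that separated likewise was not counted, and levels were scaled within each schedule. The separation is therefore not a finding about these transporters in particular. The share of counted reads from mitochondrial genes also differed between the sets, with 9.71% ± 0.70 in the once-daily and 20.6% ± 0.91 in the twice-daily control kidneys, and its part in these levels was not tested.

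In control livers Slc22a30 was the most abundant of the 9, at 42.2 ± 12.2 CPM per kb (SD, n = 4) in once-daily and 30.2 ± 2.84 (SD, n = 3) in twice-daily mice. Slc22a7 followed at 30.8 ± 15.3 and 20.4 ± 2.29, overlapping Slc22a30 in the once-daily set only. Slc22a28 stood at 6.98 ± 2.97 and 5.004 ± 0.73, Slc22a5 at 5.53 ± 1.27 and 2.62 ± 0.76, and Slc22a4, the ergothioneine transporter OCTN1, at 1.01 ± 0.34 and 0.98 ± 0.31. Whether Slc22a30 was higher in the liver or the kidney depended on the scaling. Its mean CPM per kb was lower in the liver than in the kidney, with overlapping ranges in once-daily and separate ones in twice-daily controls, whereas with both organs scaled together by TMM the log2 difference, liver minus kidney, was 0.67 (SE, the standard error of that difference, 0.17, adjusted p = 0.00398, edgeR) in once-daily and 0.43 (SE 0.12, adjusted p = 0.0101) in twice-daily controls. Without TMM it was -0.28 (adjusted p = 0.133) and -0.50 (adjusted p = 0.00351). The second TMM call was also lost without twice-daily control kidney replicate 2 (adjusted p = 0.0512) or replicate 3 (adjusted p = 0.0564). Slc22a28, its nearest relative, was lower in the liver on either scaling, with log2 differences of -2.51 (SE 0.26, adjusted p = 3.66e-06) and -2.16 (SE 0.14, adjusted p = 1.08e-07) with TMM and of -3.46 and -3.09 without it. Slc22a5 was lower in the liver by a log2 difference of -3.08 and -3.38, and Slc22a4 by -3.19 and -3.40, all past the threshold and larger still without TMM. Slc22a7 passed in neither schedule with TMM, at -0.62 (SE 0.39, adjusted p = 0.187) and 0.02 (SE 0.12, adjusted p = 0.891), and was lower in the liver in both without it, at -1.57 (adjusted p = 0.0037) and -0.91 (adjusted p = 3.42e-05). Without once-daily control liver replicate 1, the highest of its group, the once-daily difference with TMM was -0.98 (adjusted p = 0.0292).

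**Figure D1:**
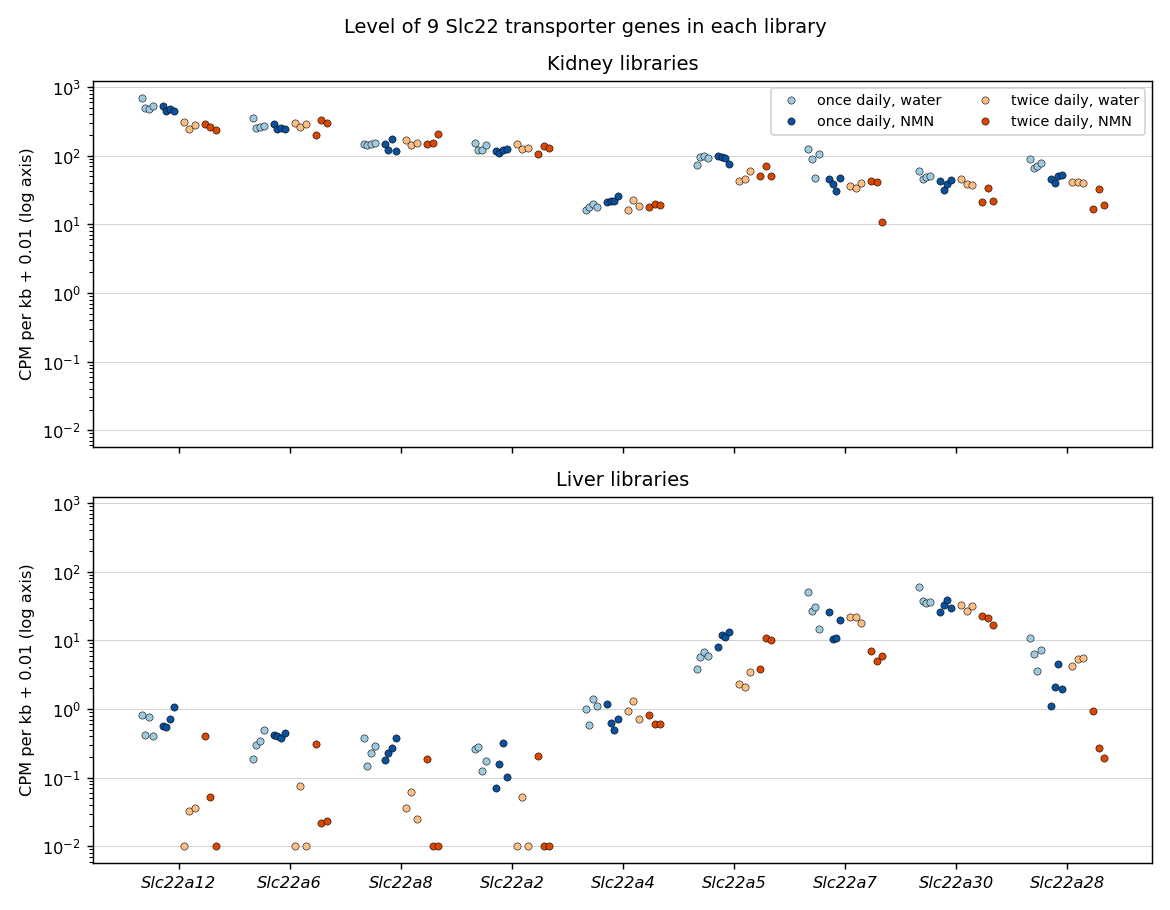
Levels of the 9 transporters in each of the 28 libraries, as CPM per kb plus 0.01 on a log axis, with kidney libraries above and liver libraries below and colours for schedule and treatment. Slc22a12, Slc22a6, Slc22a8 and Slc22a2 are the highest in the kidney and lie near the bottom of the axis in the liver, while Slc22a7 and Slc22a30 are of the same order in both organs.

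The 4 kidney transporters were counted in the liver libraries at traces that differed between sets. In the once-daily livers each of Slc22a2, Slc22a6, Slc22a8 and Slc22a12 had from 2 to 32 reads per library, between 0.0458% and 0.267% of its mean level in the kidneys of that schedule. In the twice-daily control livers they had from 0 to 5 reads, at most 0.0306%. Among the twice-daily NMN livers, replicate 1 had 10 reads of Slc22a2, 24 of Slc22a6, 14 of Slc22a8 and 18 of Slc22a12, between 0.115% and 0.165% of the kidney level. Replicates 2 and 3 had from 0 to 2 reads of each. That library therefore resembled the once-daily livers in this respect, for all 4 genes. In replicate 1 a trace of 0.165% would amount to 0.269 CPM of the 11.6 CPM of Slc22a5 counted there and 0.105 CPM of the 1.87 CPM of Slc22a28. A trace also ran the other way. Albumin (Alb) was at 0.0927% to 0.162% of its liver level in once-daily kidneys and at 0.00801% to 0.0155% in twice-daily kidneys. Apoa1, Cps1 and F2 had higher means in the once-daily set too. Ttr, at 1.156% to 2.39% and 1.109% to 1.953%, overlapped between the sets. The source of the trace was not tested in either organ. Slc22a6, Slc22a8 and Slc22a12 passed the filter on low counts in once-daily livers at these levels and are among the 8 transporters tested there, and 0 of the 4 did in twice-daily livers.

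**Figure D2:**
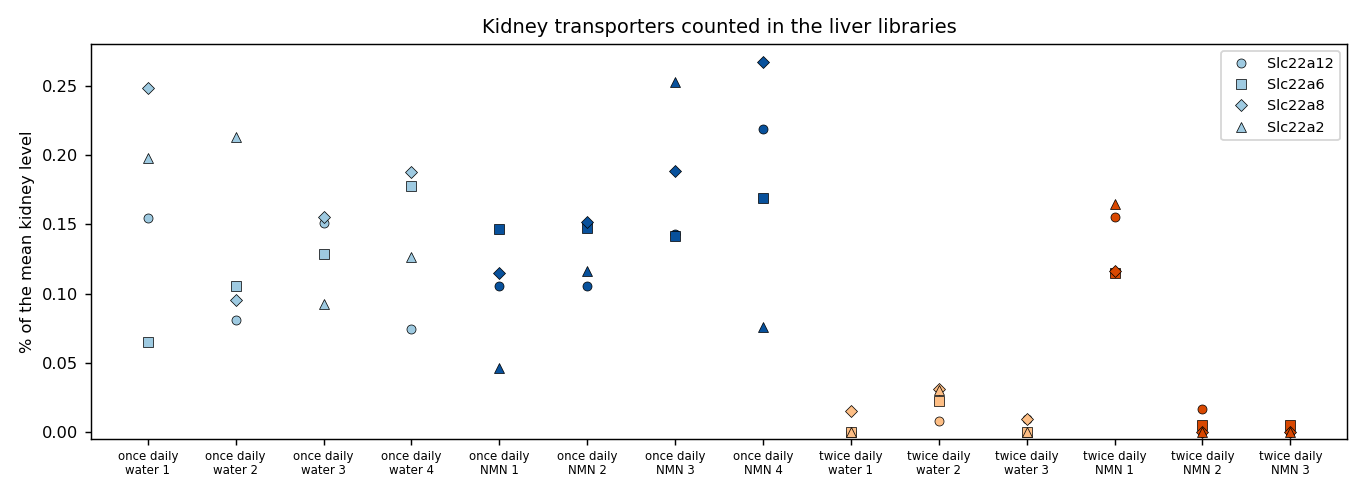
Level of Slc22a12, Slc22a6, Slc22a8 and Slc22a2 in each liver library, as a percentage of the gene's mean level in the kidney libraries of the same schedule. All once-daily livers lie at or above 0.0458% and replicate 1 of the twice-daily NMN livers at or above 0.115%, and the other twice-daily livers lie at or below 0.0306%.

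In the liver, 3 of the 5 transporters that could be tested changed with twice-daily NMN: Slc22a28 and Slc22a7 fell and Slc22a5 rose. Of all 12477 genes tested there, 7.08% changed at an adjusted p under 0.05 (380 rose and 503 fell), and at an adjusted p under 0.01 with a fold over 2 or under 0.5 it was 1.08%, with Slc22a28 and Slc22a7 among them. With once-daily NMN 0 of the 8 transporters tested in the liver passed in edgeR, where 0.0161% of all genes (2 of 12449) did and 854 genes had an unadjusted p under 0.05. The count for once-daily mice depended on the tool, since DESeq2 called 2 of the 9 transporters and 74 of 22704 genes in all. In bulk tissue, fewer cells that carry a transcript and less of it per cell cannot be told apart.

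Slc22a28 showed the largest fall of the 9 in the liver. In twice-daily mice the control livers had 8.34, 10.7 and 11.01 CPM and the NMN livers 1.87, 0.526 and 0.368 CPM. All 3 NMN livers stood far below all 3 control livers, with from 7 to 38 reads each against 162 to 209. The log2 fold change was -3.43 (SE 0.49, adjusted p = 0.00497, edgeR), a level 10.8 times lower, and the exact permutation test reached its smallest possible value for 3 against 3 (two-sided p = 0.1). It passed in all 6 fits that left out 1 library, with adjusted p from 9.89e-05 to 0.0282, and without NMN replicate 1, the highest of its group, the log2 fold change was -4.47. In once-daily mice the control livers had 21.6, 12.5, 7.20 and 14.6 CPM and the NMN livers 2.18, 4.17, 9.17 and 3.84 CPM. The groups overlapped through 1 library of each, and the log2 fold change of -1.52 (SE 0.43) had an adjusted p of 0.452 in edgeR and 0.0255 in DESeq2.

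Slc22a30, the near-identical relative of Slc22a28, differed less between NMN and control livers. In twice-daily mice it had 109, 90.8 and 106 CPM with water and 76.1, 71.6 and 55.6 CPM with NMN. The groups did not overlap, and the log2 fold change was -0.59 (SE 0.16, adjusted p = 0.0508, edgeR), just short of the threshold. DESeq2 placed it past the threshold (adjusted p = 0.0198). In once-daily mice the control livers had 203, 125, 118 and 123 CPM and the NMN livers 86.6, 111, 129 and 99.7 CPM, which overlapped, with a log2 fold change of -0.42 (SE 0.19, adjusted p = 0.719, edgeR). Without control replicate 1, the highest of its group, this log2 fold change was -0.19. Summed, the pair had 112 ± 8.86 CPM in twice-daily control livers and 68.7 ± 11.4 CPM in NMN livers (SD, n = 3 each). The part of Slc22a28 in this sum was 9.05% ± 1.75 with water and 1.26% ± 0.99 with NMN. In once-daily livers its part was 8.79% ± 2.11 with water and 4.11% ± 1.79 with NMN (SD, n = 4 each), with ranges of 5.77% to 10.7% and 2.45% to 6.65%. Per kilobase of exon its part was 14.3% ± 2.62 with water and 2.095% ± 1.62 with NMN in twice-daily livers. In once-daily livers the values per kilobase were 13.9% ± 3.19 and 6.69% ± 2.82.

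Slc22a7, the organic anion transporter OAT2 of hepatocytes, fell with twice-daily NMN. The control livers had 46.1, 45.3 and 37.4 CPM and the NMN livers 14.8, 10.52 and 12.2 CPM. The lowest control liver stood well above the highest NMN liver, and the log2 fold change was -1.78 (SE 0.18, adjusted p = 0.000645, edgeR), or 3.43 times lower. It passed in all 6 fits without 1 library (adjusted p from 0.000422 to 0.00721). In once-daily mice the control livers ranged widely, at 108, 56.0, 63.8 and 30.8 CPM, against 54.4, 21.8, 22.9 and 42.1 CPM with NMN. These groups overlapped, and the log2 fold change of -0.87 (SE 0.43, adjusted p = 0.785, edgeR) did not pass. Without control replicate 1, the highest of its group, it was -0.51.

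Slc22a5, the sodium-coupled carnitine transporter, was the member that rose. In twice-daily mice the control livers had 7.10, 6.32 and 10.7 CPM and the NMN livers 11.6, 33.5 and 30.6 CPM. The groups did not overlap, but NMN replicate 1, the library with the kidney trace, stood just above the highest control. That library also had the highest mitochondrial share of counted reads among the twice-daily livers, 9.24% against 5.74% to 7.37% in the other 5, and the largest share of reads outside annotated genes, 5.06% against 3.27% to 4.21%, and their part in its values was not tested. The log2 fold change was 1.65 (SE 0.39, adjusted p = 0.0416, edgeR), or 3.14 times higher. The call was lost without any 1 of the 3 control libraries or without NMN replicate 2 or 3 (adjusted p from 0.0594 to 0.144). Without NMN replicate 1 it was 1.99 with an adjusted p of 0.00107. In once-daily mice the control livers had 11.5, 17.4, 20.7 and 18.3 CPM and the NMN livers 24.4, 36.8, 34.7 and 40.2 CPM. Every NMN liver was above every control liver (two-sided exact permutation p = 0.0286, the smallest that 4 against 4 can give). Over all genes, this log2 fold change of 1.00 (SE 0.20) had an adjusted p of 0.132 in edgeR and 0.00292 in DESeq2. The highest of these livers, NMN replicate 4, had 12.8% of reads outside annotated genes, against 4.91% to 7.44% in the other once-daily livers. It also had 5.10% ambiguous reads against 3.09% to 3.59%, and their part in its values was not tested. Slc22a4, the other OCTN gene, had log2 fold changes of -0.45 (SE 0.38) and -0.55 (SE 0.39), neither past the threshold, at 3.601 CPM or less in every liver.

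**Figure D3:**
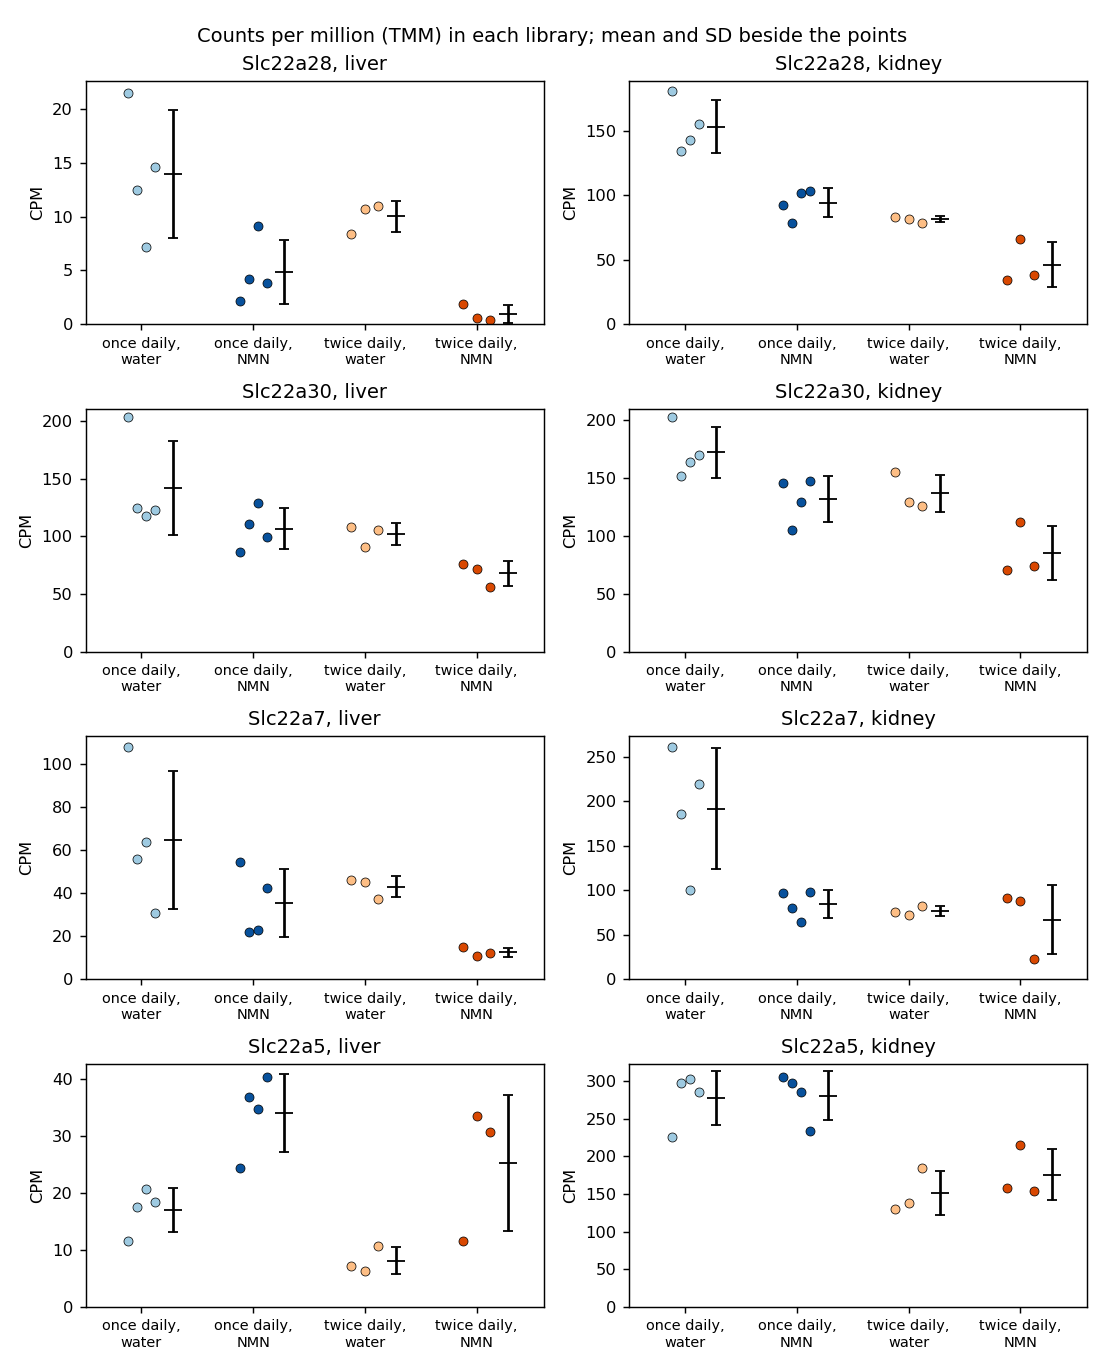
CPM of Slc22a28, Slc22a30, Slc22a7 and Slc22a5 in every liver and kidney library, 1 point per library, with the mean and SD of each group beside its points and each axis starting at 0. In twice-daily livers the 3 NMN points of Slc22a28 and Slc22a7 lie below all control points, and those of Slc22a5 lie above them.

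In the kidney, Slc22a28 fell with once-daily NMN and was the only 1 of the 9 transporters past the threshold in either schedule. Of all genes tested in the kidney, 0.12% (18 of 14972) changed with once-daily NMN and 0.4% (61 of 15245) with twice-daily NMN, where 0 of the 9 transporters passed in edgeR. At an unadjusted p under 0.05 there were 1338 and 1688 genes. DESeq2 called 159 of 26471 genes in once-daily and 236 of 26920 in twice-daily kidneys. Among them were 2 of the 9 transporters in each schedule, Slc22a7 and Slc22a28 in once-daily and Slc22a28 and Slc22a30 in twice-daily mice.

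In once-daily kidneys Slc22a28 had 181, 134, 143 and 155 CPM with water and 92.7, 78.6, 102 and 103 CPM with NMN. All NMN kidneys were below all control kidneys, and the log2 fold change was -0.70 (SE 0.11, adjusted p = 0.0269, edgeR), or 1.63 times lower. The call was lost without control replicate 1 (adjusted p = 0.0644), control replicate 4 (0.0736) or NMN replicate 2 (0.101), and in the fit over all 14 kidney libraries (0.12), while the log2 fold change stayed between -0.76 and -0.60 without any 1 library. In twice-daily kidneys it had 83.4, 81.7 and 78.6 CPM with water and 33.9, 65.9 and 37.7 CPM with NMN. The groups again did not overlap, with a log2 fold change of -0.83 (SE 0.26) and an adjusted p of 0.351 in edgeR and 0.00264 in DESeq2. NMN replicate 2 was the highest of the NMN kidneys, and without it the log2 fold change was -1.18 (adjusted p = 0.000285, edgeR), whereas in the 5 fits that each left out another library it lay between -0.85 and -0.66 (adjusted p from 0.379 to 0.654).

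Slc22a30 followed the same order in the kidney. It had 203, 152, 164 and 170 CPM with water and 145, 105, 130 and 148 CPM with NMN in once-daily mice, and 155, 129 and 126 CPM against 70.3, 112 and 73.8 CPM in twice-daily mice. In both schedules the groups did not overlap. The log2 fold changes of -0.39 (SE 0.12, adjusted p = 0.263, edgeR) and -0.68 (SE 0.19, adjusted p = 0.253, edgeR) did not pass. Without twice-daily NMN replicate 2 the second was -0.92 (adjusted p = 0.00326), and in the 5 fits without another library it lay between -0.74 and -0.56 (adjusted p from 0.281 to 0.571). The pair together had 326 ± 42.1 CPM with water and 226 ± 29.6 CPM with NMN in once-daily kidneys (SD, n = 4 each), and 218 ± 17.9 and 131 ± 40.7 CPM in twice-daily kidneys (SD, n = 3 each). Slc22a28 made up 47.1% ± 0.48 of the pair with water and 41.8% ± 2.22 with NMN in once-daily kidneys, with no overlap, and 37.4% ± 2.09 and 34.5% ± 2.30 in twice-daily kidneys, which overlapped. These shares are of plain CPM, and the exons of Slc22a28 span 2.004 kb against 3.368 kb for Slc22a30. Per kilobase, the share of Slc22a28 was 59.9% ± 0.47 with water and 54.6% ± 2.27 with NMN in once-daily kidneys, and 50.1% ± 2.24 and 46.9% ± 2.52 in twice-daily kidneys, with the same pattern of overlap. Because shared stretches take more of Slc22a28 than of Slc22a30, this share is lowered by an amount not measured. On either scale it was smaller in every liver than in every kidney, at most 16.7% per kilobase.

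**Figure D4:**
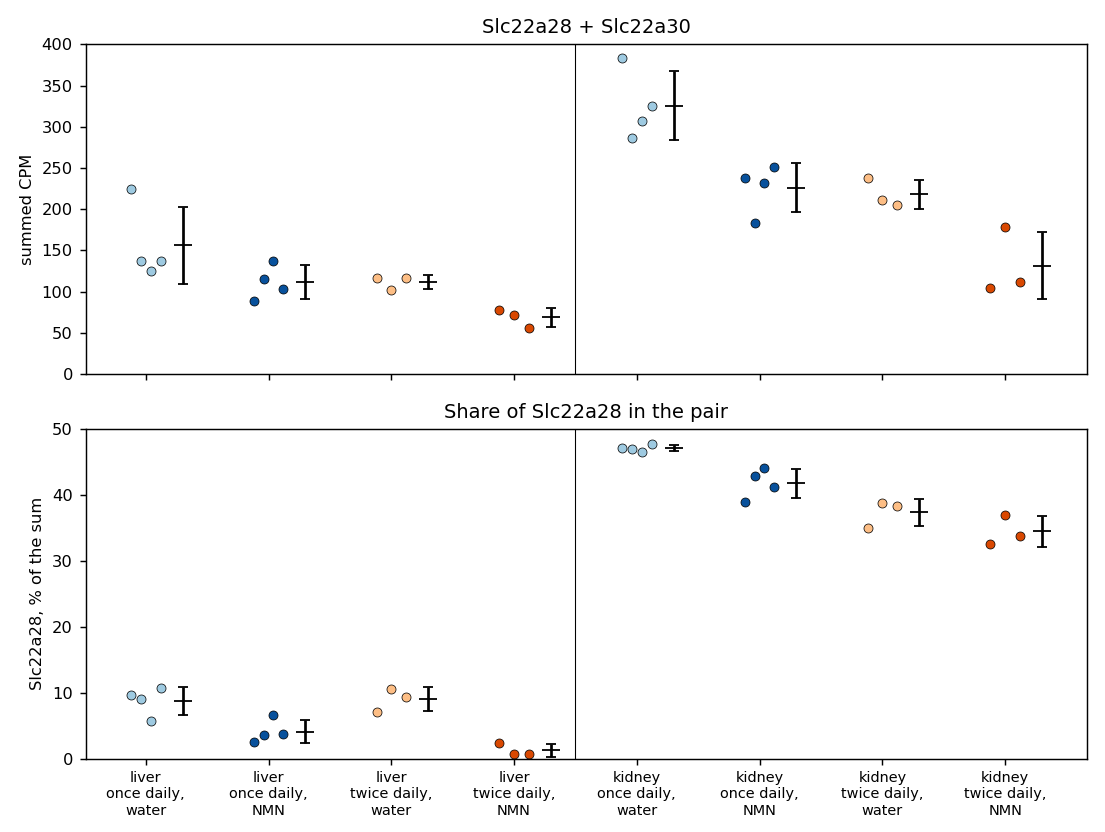
Upper panel, summed CPM of Slc22a28 and Slc22a30 in each library; lower panel, percentage of that sum counted on Slc22a28, in CPM not divided by length; points are libraries and bars the mean and SD of each group. The share of Slc22a28 is between 32.6% and 47.7% in the kidneys and at most 10.7% in the livers, and in twice-daily livers it is at most 2.40% in the 3 NMN libraries.

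Slc22a7 had its highest levels in once-daily control kidneys, at 262, 186, 101 and 219 CPM, against 96.8, 79.9, 64.3 and 98.3 CPM with NMN. All NMN kidneys were below all controls, though control replicate 3 was only just above the highest of them. The log2 fold change of -1.18 (SE 0.30) had an adjusted p of 0.289 in edgeR and 0.0218 in DESeq2, and without control replicate 3 it was -1.38 with an adjusted p of 0.00154 in edgeR. In the 7 fits without another library it lay between -1.26 and -0.98 (adjusted p from 0.306 to 0.694). In twice-daily kidneys the controls had 75.2, 71.9 and 82.8 CPM and the NMN kidneys 90.8, 88.1 and 22.3 CPM. NMN replicates 1 and 2 were above all controls and replicate 3 far below them, and the log2 fold change of -0.20 (SE 0.59, adjusted p = 0.936, edgeR) turned to 0.22 without replicate 3.

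The 4 transporters counted almost only in the kidney differed little between NMN and control mice. Slc22a6 had 1130 ± 181 CPM with water and 1021 ± 93.0 with NMN in once-daily kidneys (SD, n = 4 each), and 1119 ± 81.2 and 1092 ± 265 in twice-daily kidneys (SD, n = 3 each). Slc22a8 had 572 ± 17.2 and 548 ± 102 CPM, and 608 ± 55.6 and 659 ± 118 CPM. Slc22a2 had 333 ± 42.7 and 293 ± 16.8 CPM, and 332 ± 29.8 and 309 ± 40.1 CPM. Slc22a12 had 1237 ± 235 and 1073 ± 84.2 CPM, and 626 ± 67.0 and 595 ± 54.2 CPM. The groups of all 4 genes overlapped in both schedules, and their log2 fold changes lay between -0.20 (SE 0.12, Slc22a12, once-daily) and 0.12 (SE 0.12, Slc22a8, twice-daily), with adjusted p of 0.61 or more in edgeR. Slc22a5, at 278 ± 35.7 and 280 ± 32.4 CPM in once-daily kidneys, had a log2 fold change of 0.01 (SE 0.11) there and 0.22 (SE 0.17) in twice-daily kidneys. Slc22a4 had 40.6, 45.6, 50.5 and 45.7 CPM with water and 54.5, 55.0, 54.8 and 66.4 CPM with NMN in once-daily kidneys. Every NMN kidney was above every control (exact permutation test, two-sided, p = 0.0286), but the log2 fold change of 0.34 (SE 0.10) did not pass over all genes (adjusted p = 0.268, edgeR). In twice-daily kidneys its means were 48.2 and 48.2 CPM, and the groups overlapped.

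**Figure D5:**
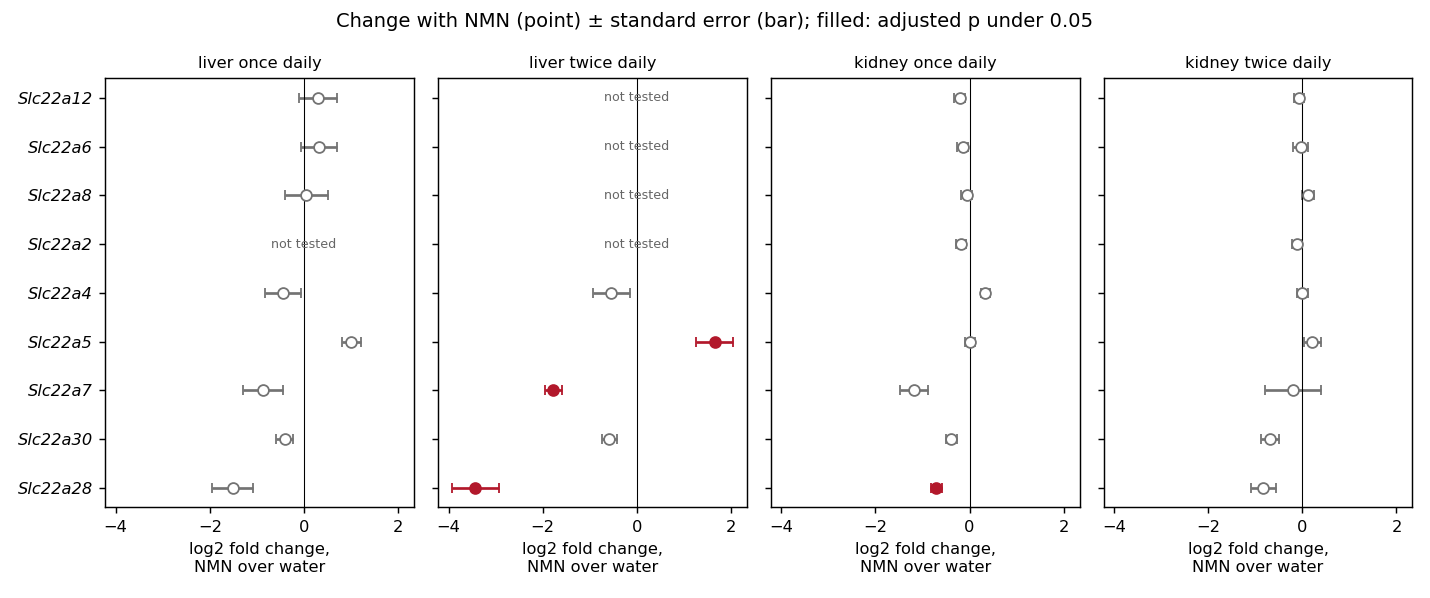
log2 fold change of NMN over control for each transporter in the 4 organ and schedule comparisons, with its standard error (SE) as a bar; filled points passed an adjusted p under 0.05 in edgeR, and genes too low to be tested are marked. Slc22a28 lies left of 0 in all 4 panels, Slc22a5 lies right of 0 by 1.00 and 1.65 in the liver and by 0.01 and 0.22 in the kidney, and Slc22a12, Slc22a6, Slc22a8 and Slc22a2 lie near 0 in the kidney.

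A schedule-by-treatment term, fitted to all 14 libraries of each organ, tested whether the change with NMN differed between once-daily and twice-daily mice. Of all genes 0.0746% (10 of 13412) passed in the liver and 0.00625% (1 of 15989) in the kidney, and 0 of the 8 and 0 of the 9 transporters tested did in edgeR. DESeq2 called 0 of the 9 in either organ. At an unadjusted p under 0.05 there were 1154 and 738 genes. For Slc22a28 in the liver the change in twice-daily minus that in once-daily mice was -1.90 in log2 units (SE 0.74, adjusted p = 0.474, edgeR). For Slc22a7 the difference between schedules was -0.90 (SE 0.54) in the liver and 0.98 (SE 0.63) in the kidney, and for Slc22a5 in the liver 0.66 (SE 0.44).

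Of the other 16 Slc22 genes, 0 passed the threshold in edgeR in any of the 4 comparisons with NMN, of 7 and 6 tested in the liver (once-daily and twice-daily mice) and 13 and 13 in the kidney. Their median log2 fold changes came to -0.01 and -0.33 for liver and 0.06 and 0.07 for kidney, against medians between -0.003 and 0.004 for all genes tested, and those of the 9 transporters in the kidney were -0.19 and -0.07. In the liver, the 5 transporters above trace had medians of -0.45 and -0.58, and over all 8 tested in once-daily livers, trace genes included, the median was -0.19. The 9 were chosen with earlier results of these data known, so the choice itself can set them apart from the other 16. Their calls and medians are therefore a description and not a test of the 9 against the rest of the family. In the group of 6 similar genes, 3 were tested in the liver and 5 in the kidney, and Slc22a28 was the 1 that passed. Slc22a26, a relative of Slc22a28, was higher with NMN in twice-daily kidneys. It had 13.3, 16.8 and 17.0 CPM with water and 45.9, 45.0 and 26.2 CPM with NMN, without overlap, and its log2 fold change of 1.31 (SE 0.23) had an adjusted p of 0.093 in edgeR. Slc22a19 of the same group also lay higher there, at 69 ± 9.60 CPM with water (highest 76.6) and 107.5 ± 21.05 with NMN (lowest 83.7), and did not pass. Of the 5 tested genes of the group, 2 were higher and 3 lower in those kidneys. Slc22a23 had the smallest p of the other genes in once-daily kidneys, with a log2 fold change of -0.45 (SE 0.12, adjusted p = 0.161). Slc22a3 (OCT3, log2 -0.36 in once-daily livers) and Slc22a15 (log2 -0.61 in twice-daily livers) led their comparisons and did not pass either.

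Calls among the genes that work with these transporters are read against those of all genes, of which 7.08% passed in twice-daily livers but 0.0161% in once-daily livers and 0.12% and 0.4% in the kidneys, and most of their calls were likewise in twice-daily livers. Of 4 tested genes for the dicarboxylate and monocarboxylate carriers and the scaffold proteins of the apical membrane, 3 fell there, with a list median of -0.77. Pdzk1, a scaffold that anchors Slc22 proteins and other carriers, fell by a log2 fold change of -0.92 (SE 0.20, adjusted p = 0.0242, edgeR). Slc9a3r1, the scaffold NHERF1, fell by -0.62 (adjusted p = 0.0365), and Slc13a3, which brings in the dicarboxylates that OAT1 and OAT3 exchange, by -1.01 (adjusted p = 0.0414) from 20.9 ± 6.43 to 10.4 ± 2.45 CPM. In once-daily kidneys Slc13a2, the other sodium-dicarboxylate carrier, rose from 59.1 ± 3.598 to 87.1 ± 5.86 CPM (SD, n = 4 each; log2 fold change 0.56, SE 0.09, adjusted p = 0.0275). It was the 1 of the 6 genes of that list past the threshold in the kidney.

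Of 6 tested Slco uptake carriers, 2 fell in twice-daily livers and 0 rose. Slco1a1, an organic anion carrier of hepatocytes, fell from 439 ± 81.8 to 214 ± 56.2 CPM (SD, n = 3 each; log2 fold change -1.03, adjusted p = 0.0161), and Slco2a1, the prostaglandin carrier, fell by -0.65 (adjusted p = 0.0392). Of 9 tested efflux transporters, Abcc2, which exports conjugated anions into bile, rose from 297 ± 49.96 to 524 ± 130 CPM (log2 fold change 0.82, adjusted p = 0.0346), and 8 did not pass. In the kidney 0 of 9 efflux transporters, pumps and carriers together, passed in either schedule. The smallest p in both was that of Abcc4, the anion pump MRP4, with log2 fold changes of 0.68 (SE 0.17, adjusted p = 0.165) and 1.07 (SE 0.21, adjusted p = 0.13). Among 7 receptors and factors known to act on transporter genes, Nr1i3 (CAR) rose in twice-daily livers from 51.5 ± 6.12 to 134 ± 21 CPM (log2 fold change 1.38, adjusted p = 0.00141), and the others did not pass in any comparison. Hnf4a had the smallest p of them in once-daily livers, with a log2 fold change of 0.68 (adjusted p = 0.117). Of 7 tested genes of carnitine synthesis and use, Crat, carnitine acetyltransferase, rose in twice-daily livers from 25.4 ± 7.61 to 75.5 ± 22.2 CPM (log2 fold change 1.57, adjusted p = 0.00978), beside the rise of the carnitine transporter Slc22a5, and 6 did not pass. In once-daily livers all 7 had positive log2 fold changes with a median of 0.23, and 0 passed. Crat overlaps Dolpp1 and Gm16323 on the other strand. Exons of other called genes of these lists also overlap a gene on the other strand. These are Nr1i3 (Tomm40l), Pdzk1 (Cd160 and Gpr89 among others), Slc13a2 (Slc13a2os) and Slco2a1 (n-R5s89).

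Markers of the cells that carry the transporters were read beside them. In once-daily controls 7 hepatocyte markers summed to 1826 ± 245 CPM in the kidney, mostly Cyp2e1, which the kidney also expresses, and 10 proximal tubule markers to 89.9 ± 14.9 CPM in the liver, mostly Aqp1. Of 10 proximal tubule markers, 0 passed in once-daily kidneys (7 lower, median log2 -0.26) and 1 fell in twice-daily kidneys (7 lower, median -0.30). That gene was Miox, the inositol oxygenase of the proximal tubule, which fell from 1740 ± 68.9 to 989 ± 109 CPM (log2 fold change -0.82, SE 0.10, adjusted p = 0.0121, edgeR). The 10 markers summed to 14180 ± 1020 CPM with water and 11950 ± 356 with NMN in once-daily kidneys and to 11150 ± 443 and 8960 ± 809 in twice-daily kidneys, without overlap in either, and Slc34a1, the phosphate carrier, was the most abundant of them throughout. None of the 10 was at 0 in a kidney group. In the same kidneys Slc22a28 and Slc22a30 lay lower with NMN without overlap in both schedules, Slc22a7 lay lower and Slc22a4 higher without overlap in once-daily mice only, and Slc22a5, Slc22a6, Slc22a8, Slc22a2 and Slc22a12 overlapped between groups. The share of all genes whose groups separated likewise was not counted, so this is a description and not a finding about the transporters. The part of the proximal tubule markers in the results was not tested. Of 7 hepatocyte markers, 0 passed in once-daily livers and 1 in twice-daily livers, Ttr (transthyretin), which fell from 7494 ± 476 to 3833 ± 366 CPM. The 7 summed to 108400 ± 13910 and 110400 ± 14990 CPM in once-daily livers and to 157000 ± 6082 and 121200 ± 8222 CPM in twice-daily livers, where the groups did not overlap. Albumin was the most abundant, and none was at 0 in the liver. Slc22a28 and Slc22a7 fell with this sum and Slc22a5 rose, and its part was not tested. Of the markers of the thick ascending limb of the loop, the distal and collecting segments, glomeruli, endothelium, stroma, leukocytes, bile ducts and Kupffer cells, 0 of those tested passed in any comparison, with 0 Kupffer markers tested in the kidney and 0 of the limb or of the distal and collecting segments in twice-daily livers. The 4 markers of the thick ascending limb, mostly Umod (uromodulin), nevertheless summed to 4254 ± 381 CPM with water (highest 4751) and 5459 ± 294 with NMN (lowest 5064) in once-daily kidneys, where those of the proximal tubule were lower. In twice-daily kidneys their sums were 3047 ± 460 and 3384 ± 299 CPM and overlapped. The part of these markers in the kidney results was not tested.

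The genes whose levels followed each changed transporter most closely were ranked by Pearson's r over the 14 libraries of an organ, after the mean of each schedule was subtracted from log2 CPM. The points share the treatment groups and the libraries, so r is a description. In the liver Slc22a5 was followed by Hsdl2 (r = 0.965), Ehhadh, an enzyme of peroxisomal fatty acid oxidation (0.916), and Aldh3a2, a fatty aldehyde dehydrogenase (0.915). Slc22a7 was followed by Dct (0.938), Mmp19 (0.937) and Letmd1 (0.934), and Slc22a28 by Cpn1 (0.918), Ugt2b38, a glucuronosyltransferase (0.913), and Gm11967 (0.913). In the kidney Slc22a28 was followed by Slc22a30 (0.956), with which it shares sequence, by Slc22a22, the prostaglandin carrier OAT-PG (0.953), and by Aadac (0.949). Slc22a22 shared 0% of its 50-base stretches with other transcripts, and it had 120 ± 9.52 CPM with water and 98.9 ± 11.1 with NMN in once-daily kidneys without overlap, with a log2 fold change of -0.28 (adjusted p = 0.403, edgeR). In twice-daily kidneys it had 139 ± 10.9 and 101 ± 25.3 CPM (SD, n = 3 each), which overlapped, with a log2 fold change of -0.47 (adjusted p = 0.338).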

How the data were processed

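Reads of 28 libraries were aligned with STAR and counted per gene with HTSeq-count 0.11.0 by the authors, in its strict intersection mode and without strand. The deposited values are whole-number counts per Ensembl gene, without normalization or filtering. Of 54446 identifiers 53229 matched GENCODE M21 with the same version, 1180 with another and 37 not at all, and symbols came from that annotation. The mouse build named by the study could not be matched to a build, so only RefSeq promoter coordinates are given.

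Counts were analysed in edgeR 4.0.16 (R 4.3.3) with filterByExpr, TMM scaling and the robust quasi-likelihood test, with Benjamini-Hochberg adjustment over all genes tested in one comparison and a threshold of 0.05. Each NMN comparison was fitted on the libraries of its organ and schedule, without a replicate block. Each SE was derived from the log2 fold change and its F statistic. Exact permutation tests were two-sided on CPM. For groups said not to overlap, the share of all genes that did likewise was not counted. DESeq2 1.42.0, its size factors in edgeR, no filter, a replicate block, one fit per organ, a stricter threshold, thinned counts and leaving out each library were the alternatives, with no TMM between the organs added later.

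The 9 transporters and the lists of partner and marker genes were chosen with earlier results of these data known. From each list, at most 3 genes past the threshold with the smallest p were named per NMN comparison, or else the 1 with the smallest p, with genes most like each changed transporter. One list gene had no match. On simulated counts with 200 changed genes, edgeR recovered 77%, 68%, 91% and 97% of genes changed by 2-fold (once-daily and twice-daily liver, then kidney), and 7.89%, 6.7%, 4.5% and 7.94% of its calls were false. For the schedule-by-treatment terms these shares were 24% (liver) and 77% (kidney). The changed genes were drawn only from genes above a minimum mean CPM, so recovery at lower levels was not measured. DESeq2 had 9.39% to 18.55% false calls in the NMN comparisons. Variation between replicates (edgeR's common coefficient) was 25%, 23.6%, 16.2% and 12% in that order. No 2 libraries of the same group agreed within counting noise, and pairs across groups were not compared. Reads carry no molecular identifiers, so counts are not independent molecules.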

Additional observations from a re-analysis of the deposited data

Results flagged for a closer look

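In groups of 4 libraries, the highest or lowest value was looked at again where its distance to the nearest other exceeded Dixon's 95% critical share of the group's range, which chance gives in about 1 of 20 groups. Of 36 groups tested, 3 met it. Slc22a4 was 66.4 CPM in NMN replicate 4 of the once-daily kidneys, against 54.5 to 55.0 CPM in the other 3. Slc22a6 was 1158 CPM in NMN replicate 1 of the once-daily kidneys, against 964 to 997 CPM. Slc22a30 was 203 CPM in control replicate 1 of the once-daily livers, against 118 to 125 CPM, and the same library was also the highest of its group for Slc22a28 (21.6 CPM) and Slc22a7 (108 CPM).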

How the results depend on the processing

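Of the single-transporter values outside the leave-one-out fits, 312 kept their direction and side of the threshold, 15 newly passed, 2 no longer passed and 7 reversed. Without TMM, added after the data were seen, the difference between liver and kidney turned to -0.278 for Slc22a30 in once-daily and to -0.5028 for Slc22a30 and -0.9086 for Slc22a7 in twice-daily controls. The other 4 reversals were of Slc22a4 in twice-daily kidneys (0.0005 on the log2 scale), at -0.0022 in DESeq2, -0.0027 with its size factors, -0.0046 in the fit of all 14 libraries and -0.0266 in thinned counts. DESeq2 and edgeR without a filter tested more genes. Against 2 genes called in once-daily livers, DESeq2 called 74 (2 of the 9 transporters), no filter 44 (1), the replicate block 16 (1) and the fit of all 14 libraries 6. Against 18 in once-daily kidneys with 1 transporter, the counts were 159 (2), 269 (2) and 75 (2) in that order, and the fit of all 14 libraries called 0 of the transporters. Against 883 in twice-daily livers they were 1450 in DESeq2, 1785 without a filter and 135 at the stricter threshold. Against 61 in twice-daily kidneys they were 236 (2 transporters), 514 (1), 92 with the block and 35 in the fit of all 14. For the interactions (10 and 1 called) DESeq2 gave 98 and 10, no filter 71 and 106, among them 1 transporter in the kidney, Slc22a7, and the block 2 in the kidney. The cause of these shifts was not tested.

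Without 1 library, the calls ranged from 0 to 18 in once-daily livers, 211 to 1308 in twice-daily livers, 5 to 67 in once-daily and 3 to 191 in twice-daily kidneys, and 7 to 25 and 0 to 1 for the liver and kidney interactions, with 0 to 2 transporters called in either kidney comparison. Log2 values that changed sign ran from -0.0619 to 0.0924 (Slc22a5) and -0.19 to 0.0106 (Slc22a8) in once-daily kidneys, and from -0.12 to 0.14 (Slc22a4), -0.19 to 0.14 (Slc22a6), -0.49 to 0.22 (Slc22a7), -0.0402 to 0.20 (Slc22a8) and -0.15 to 0.0032 (Slc22a12) in twice-daily kidneys. They ran from -0.17 to 0.28 for Slc22a8 in once-daily livers and from -0.0267 to 0.17 for Slc22a7 between the organs of twice-daily controls. In the kidney interaction they ran from -0.0407 to 0.29 (Slc22a6), -0.0058 to 0.21 (Slc22a12) and -0.48 to 0.0503 (Slc22a28), and in the liver interaction from -0.30 to 0.21 (Slc22a4), -1.05 to 5.55 (Slc22a6) and -4.18 to 1.39 (Slc22a8), where the last 2 rest on a few reads.

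Same-numbered NMN and control libraries were not taken as pairs, since their deviations correlated between -0.10 and 0.16. In twice-daily livers, however, all 3 same-numbered pairs correlated positively, from 0.058 to 0.151, and every library correlated best with its own number. Whether those libraries are paired cannot be told from 3 such values, and the paper describes a random division of the mice into groups. Same-numbered liver and kidney libraries of control mice correlated positively in every pair, from 0.06 to 0.22 in once-daily and from 0.063 to 0.158 in twice-daily mice, where every library correlated best with its own number. This is a hint from the data that they may be paired, and the block changed no transporter call between the organs. With the replicate block Slc22a5 in once-daily livers (adjusted p = 0.0271, edgeR), Slc22a7 in once-daily kidneys (0.00311) and Slc22a30 in twice-daily livers (0.044) passed, and no transporter call was lost. Depth limits mainly Slc22a28 in twice-daily NMN livers (7 to 38 reads) and the kidney transporters in the liver. In simulated counts, edgeR recovered 77% and 68% of 2-fold changes in once-daily and twice-daily livers, among genes above a minimum mean CPM. Smaller changes were not simulated, nor were changes of genes at lower levels, such as Slc22a4 and the kidney transporters in the liver.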
